A study of Homo sapiens with 6 samples.

Results

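The cytosolic chaperonin CCT, also called TRiC, is built from 8 related subunits, and its transcripts were followed here in K562 cells that had received 1 of 3 plasmids. The members were the rows whose NCBI Gene identifier belongs to TCP1, CCT2, CCT3, CCT4, CCT5, CCT6A, CCT7 or CCT8, so that 8 of 25702 identifiers were described. K562 is a human erythroleukaemia line established from chronic myeloid leukaemia in blast crisis. The cells had been transfected with the empty pCMV-HA vector (EV), with the same vector carrying MXD3, or with the vector carrying STIM1::MXD3, a fusion found in paediatric acute myeloid leukaemia. Each group had 2 poly A libraries from independent transfections, numbered 1 and 2 in the labels. All groups shared the CMV-driven, HA-tagged vector and the nucleofection step, and expression was transient. The study states a nucleofection efficiency for its K562 protocol in general and not for these single libraries.

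CCT folds proteins inside a closed chamber made of stacked rings, with each ring holding 1 copy of each of the 8 subunits in a fixed order, and it is driven by ATP. Its best known substrates are actin and tubulin, and it also folds several proteins with WD40 repeats, such as the mitotic activator CDC20. Prefoldin delivers unfolded chains to the rings, and phosducin-like proteins act as cofactors. The subunits TCP1, CCT2, CCT4 and CCT5 lie on the side of the ring that binds ATP tightly, and CCT3, CCT6A, CCT7 and CCT8 lie on the side that binds it weakly. MXD3 is a partner of MAX that represses transcription from E-boxes and opposes MYC. The fusion is described as still able to bind DNA but without the segment at the start of MXD3 that is presumed to repress.

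The libraries held between 53048343 and 63835779 counts, and the 8 subunits together took between 0.363% and 0.413% of them. The transfected genes were higher where the labels place them. MXD3 stood at 10.5 ± 1.67 counts-per-million (CPM, scaled by TMM) in EV, 2342 ± 256 in MXD3 and 1912 ± 89.4 in STIM1::MXD3 (SD, n = 2 libraries). STIM1 stood at 190 ± 20.5, 173 ± 19.3 and 462 ± 13.0 CPM in the same order. The erythroid markers GATA1, TAL1 and KLF1 were present in every library, while the B cell marker MS4A1 and the keratinocyte markers KRT5 and KRT14 were at 0 in all 6. CD3D and LYZ, markers of T cells and monocytes, reached 19.8 and 27.0 CPM, but CD3E, CD2, CD14 and CSF1R stayed below 1 CPM. Since these are bulk samples, fewer cells with a transcript and less of it per cell cannot be told apart.

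The 8 genes are spread over 7 chromosomes. On GRCh37 (hg19), the build of the files, TCP1 (CCT alpha, Gene identifier 6950) spans chr6:160199530-160210735 on the minus strand with 12 exons in its canonical GENCODE transcript. CCT2 (beta, 10576) lies at chr12:69979206-69995350 on the plus strand with 16 exons, and CCT3 (gamma, 7203) at chr1:156278759-156337664 on the minus strand with 14 exons. CCT4 (delta, 10575) and CCT7 (eta, 10574) share chromosome 2, at chr2:62095220-62115806 on the minus strand with 14 exons and at chr2:73460548-73480149 on the plus strand with 12 exons. CCT5 (epsilon, 22948) lies at chr5:10250041-10266501 on the plus strand with 11 exons. CCT6A (zeta, 908) lies at chr7:56119378-56131682 on the plus strand with 14 exons. CCT8 (theta, 10694) lies at chr21:30428126-30446118 on the minus strand with 15 exons. The canonical last exon of TCP1 shares 454 bp with that of ACAT2 on the other strand, and whether the counting used strand was not given, so a part of the TCP1 counts is uncertain. ACAT2, a cytosolic thiolase, stood at 71.2 to 108 CPM.

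The 250 bases before each canonical start were read for 4 short motifs on both strands, to show which letters the windows have in common. CCAAT, the core bound by NF-Y, was found upstream of TCP1, CCT2, CCT3, CCT6A and CCT8, 5 of 8 members, against 34.3% of 19874 protein-coding genes. CGGAAG, an ETS factor core, was found in TCP1, CCT2 and CCT7, 3 of 8 against 21.9%. The E-box CACGTG, which MXD3 with MAX and MYC with MAX can bind, was in 0 of 8 windows, against 7.87% of all. GAANNTTC, a pair of inverted heat shock units, was in the window of TCP1 only, against 4.66%. The windows of CCT4 and CCT5 held none of the 4 motifs. GC content ran from 48.4% in CCT5 to 72.8% in CCT6A, around a median of 63.2% over all genes. The CCAAT boxes are shown with 12 bases on each side, read along the strand on which the letters run as CCAAT, with the box in capitals, so that the neighbouring bases of the 5 genes can be compared.
TCP1, chr6:160210772-160210800, plus strand, box starting at -154: cggcatttttgtCCAATtagatagccgat
CCT2, chr12:69979136-69979164, plus strand, box starting at -91: gcccgtggggctCCAATcaaaatgggacg
CCT3, chr1:156308142-156308170, plus strand, box starting at -75: cacaaaaacagaCCAATtgacagccttag
CCT3, chr1:156308101-156308129, plus strand, box starting at -34: tcaaggtagtcgCCAATcaccgcacccat
CCT6A, chr7:56119360-56119388, plus strand, box starting at -86: tgcagccgcggaCCAATgagcgggcgccg
CCT6A, chr7:56119390-56119418, plus strand, box starting at -56: acgacctgtggcCCAATggcggcggcgcg
CCT8, chr21:30446016-30446044, plus strand, box starting at -63: cttcctggctctCCAATtagcccaccctt

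Positions count back from the canonical start, whose first transcribed base is not in the window, and give the first base of the box along the gene's own strand. The ETS cores are shown in the same way with CGGAAG in capitals, since TCP1 and CCT2 held both motifs and CCT7 held this one alone.
TCP1, chr6:160210812-160210841, plus strand, core starting at -195: gaaagcggagaaCGGAAGtcggatgttgga
TCP1, chr6:160210729-160210758, plus strand, core starting at -112: acaggactgtgaCGGAAGtgaggctccggg
CCT2, chr12:69979212-69979241, minus strand, core starting at -15: actgaaggaagcCGGAAGtgacgccacacg
CCT7, chr2:73461361-73461390, plus strand, core starting at -63: accatagagtagCGGAAGtggtccgttctc

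A match gives letters only, and no binding was measured in these samples. All 8 members passed the filter on low counts, and each was among the 424 highest of 15431 genes tested by mean CPM. CCT8 ranked 169th and CCT6A ranked last of the 8.

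Among the tight ATP-binding subunits, CCT4 was the most variable member. In replicates 1 and 2 it stood at 550 and 424 CPM with EV, at 446 and 380 CPM with MXD3, and at 587 and 428 CPM with STIM1::MXD3. Replicate 1 was the higher library in every group, and the libraries of the 3 groups overlapped. CCT2 stood at 395 and 361 CPM with EV, at 365 and 342 CPM with MXD3, and at 435 and 339 CPM with STIM1::MXD3, where its highest and lowest libraries both lay. TCP1, the subunit after which the complex is named, stood at 481 and 441 CPM with EV, at 427 and 412 CPM with MXD3, and at 501 and 432 CPM with STIM1::MXD3. Both MXD3 libraries were the lowest of the 6 for TCP1. Of all genes tested, 14.8% had both MXD3 libraries below both EV libraries. In 10.9% both STIM1::MXD3 libraries lay above both MXD3 libraries, and the share with both patterns was not counted. CCT5, which is mutated in a hereditary sensory neuropathy, stood at 538 and 550 CPM with EV, at 525 and 556 CPM with MXD3, and at 582 and 576 CPM with STIM1::MXD3. For CCT5, both STIM1::MXD3 libraries lay above the other 4, and EV and MXD3 overlapped. Of all genes tested, 12.0% had both STIM1::MXD3 libraries above both EV libraries and 10.9% had them above both MXD3 libraries. The share with both was not counted.

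On the weak ATP-binding side, CCT8 had the most counts of all members. It stood at 733 and 635 CPM with EV, at 628 and 599 CPM with MXD3, and at 792 and 604 CPM with STIM1::MXD3. Its second STIM1::MXD3 library lay within the range of the MXD3 libraries, and both EV libraries lay above that range. CCT7 stood at 503 and 481 CPM with EV, at 433 and 443 CPM with MXD3, and at 499 and 465 CPM with STIM1::MXD3. CCT3 stood at 480 and 483 CPM with EV, at 454 and 428 CPM with MXD3, and at 514 and 468 CPM with STIM1::MXD3. For CCT3 and CCT7 alike, the MXD3 libraries were the 2 lowest, as for TCP1. The shares of all genes are those given there, 14.8% against EV and 10.9% against STIM1::MXD3. CCT6A stood at 366 and 364 CPM with EV, at 350 and 371 CPM with MXD3, and at 391 and 375 CPM with STIM1::MXD3. Its spread was the narrowest of the 8 on the log2 scale. As for CCT5, both STIM1::MXD3 libraries lay above all libraries of the other groups, and the shares of all genes are those given for CCT5.

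**Figure D1:**
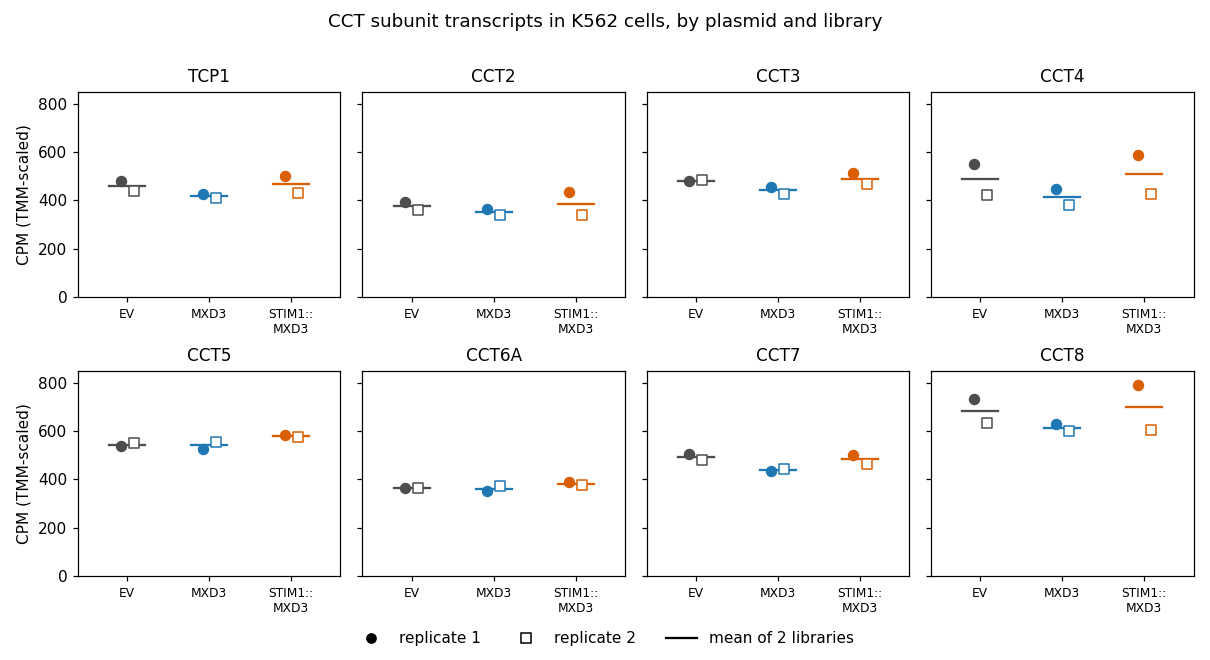
TMM-scaled CPM of each CCT subunit (vertical axis, from 0) in the 6 libraries, by plasmid (horizontal axis). Filled circles are replicate 1, open squares replicate 2, and lines the mean of 2 libraries. CCT4 and CCT8 show the widest gaps between replicate numbers, and CCT5 and CCT6A the narrowest.

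Summed over the 8 subunits, the level was 3892 ± 218 CPM in EV libraries, 3580 ± 69.2 CPM under MXD3 and 3993 ± 434 CPM under the fusion (SD, n = 2). The 2 MXD3 libraries, at 3629 and 3531 CPM, were the lowest of the 6. The SD of log2 CPM over the 6 libraries had a median of 0.0988 for the members, from 0.0521 in CCT6A to 0.241 in CCT4, against 0.218 over all genes tested and 0.136 over the 2408 genes with a mean of at least 100 CPM.

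Levels of different subunits were compared as CPM per kilobase of exon. With the union of all annotated exons as length, CCT8 was highest at 199 ± 23.6 CPM per kb and CCT4 next at 174 ± 29.9 (SD, n = 6 libraries). CCT7 followed at 131 ± 8.03, CCT3 at 122 ± 7.44, CCT5 at 98.3 ± 3.90, CCT6A at 96.0 ± 3.48, TCP1 at 92.0 ± 7.05 and CCT2 at 88.1 ± 8.64 CPM per kb. The first 4 kept this order in every library. The ranges over the 6 libraries overlapped for CCT8 (179 to 237) and CCT4 (141 to 217), and for CCT7 (121 to 140) and CCT3 (111 to 133), although within each library CCT8 lay above CCT4 and CCT7 above CCT3. The ranges of the last 4 overlapped too, and their ranks changed between libraries. CCT8 took 19.8% ± 0.723 of the summed level per length, and the highest mean was 2.26 times the lowest. These are transcript levels, and the subunit proteins were not measured.

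The order below CCT8 depended on which length was used. With the canonical transcript, a length chosen after the data were seen, CCT8 was again first in all 6 libraries, with a share of 20.5%, followed by CCT7 at 14.6% and CCT3 at 13.7%. CCT4 then moved from 17.3% ± 1.54 and rank 2 to 11.3% ± 1.06 and rank 4, and CCT6A was lowest in every library at 8.22%. The longest transcript gave CCT4 11.7% and CCT6A 8.56%.

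**Figure D2:**
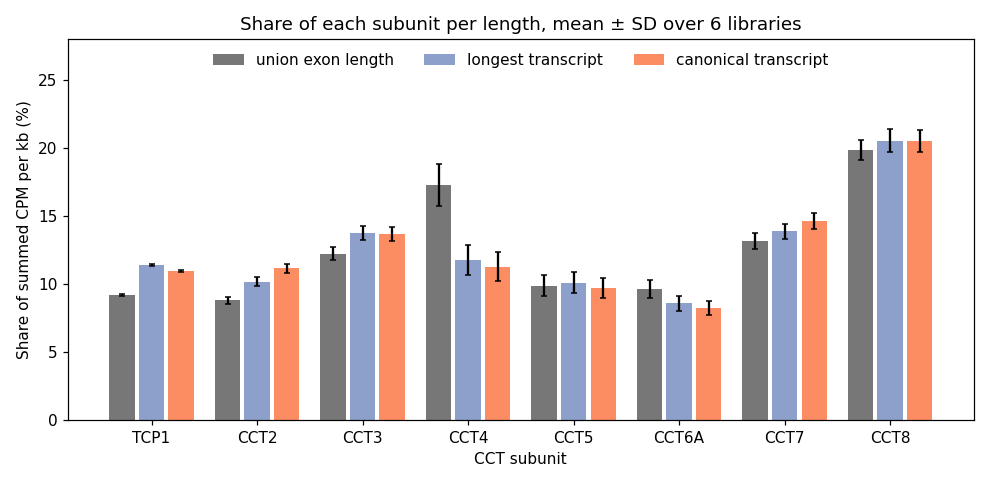
Share of each subunit in the summed CPM per kb of the 8 subunits (vertical axis, percent, from 0), as the mean over 6 libraries with SD bars, for 3 choices of length. CCT8 takes about the same share under all 3, at 19.8% to 20.5%, while CCT4 goes from 17.3% with the union of exons to 11.3% with the canonical transcript.

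The comparison of STIM1::MXD3 with EV asked what the fusion changed. None of the 8 subunits passed the test. In log2 fold change, the members ran from -0.03 (CCT7) to 0.09 (CCT5), with a median of 0.03, beside 0.01 over all genes tested. Of the members, 7 of 8 were above 0, beside 52.1% of all genes tested. CCT5 was 0.09 ± 0.11 (SE; 95% interval -0.18 to 0.36) and CCT6A 0.07 ± 0.12, and these 2 were the members with both STIM1::MXD3 libraries above both EV libraries. That pattern held for 12.0% of all genes tested, and the opposite one, which 0 members showed, held for 10.0%. CCT4 was 0.06 ± 0.20 and CCT8 0.03 ± 0.16.

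By edgeR's quasi-likelihood F test, fitted over all 6 libraries, the adjusted p was 1.00 for each member. No member had an unadjusted p under 0.05, and DESeq2 called 0. Over all genes, 1 was called, MXD3 itself, which is 0.00648%, and a fit blocked on the replicate number called 0 members and 3 genes in all, 0.0194%, which were MXD3, STIM1 and VPS52 (named after their values were seen). The 2 replicate pairs disagreed, with a median log2 ratio of 0.10 in replicate 1 and -0.04 in replicate 2. Without the first STIM1::MXD3 library the median was -0.09, and without the second it was 0.10. Without the first EV library it was 0.08, and without the second -0.04.

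With MXD3, all 8 subunits were lower than with EV by the fitted value, and none of these differences passed the test. The median log2 fold change was -0.13, beside 0.00 over all genes, of which 50.2% were higher. CCT4 was -0.24 ± 0.20 (95% interval -0.72 to 0.24), CCT7 -0.17 ± 0.12, CCT8 -0.16 ± 0.16 and TCP1 -0.14 ± 0.13. CCT3 was -0.12 ± 0.12 and CCT2 -0.10 ± 0.15. CCT6A was -0.02 ± 0.12 and CCT5 -0.01 ± 0.11, and these 2 turned positive, at 0.02 and 0.03, when libraries were scaled by total counts alone. TCP1, CCT3, CCT7 and CCT8, 4 of 8 members, had both MXD3 libraries below both EV libraries, a pattern of 14.8% of all genes. The opposite pattern, in 0 members, was that of 16.2% of all genes.

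The adjusted p by edgeR was 1.00 for each member without the block, with 0 unadjusted p under 0.05, and DESeq2 called 0. MXD3 itself was the 1 gene called of 15431, 0.00648%. With the replicate block, CCT4 was -0.23 ± 0.08, with an unadjusted p of 0.015 and an adjusted p of 0.237 by edgeR. CCT7 was -0.17 ± 0.08, with an unadjusted p of 0.057 and an adjusted p of 0.374. In that edgeR fit 45 genes were called, 0.292%, and 0 members. An unadjusted p under 0.05 was found for 1 of 8 members and 2149 of 15431 genes by edgeR with the block. By DESeq2 with the block it was found for 2 members and 1754 genes. Within pairs, 6 members were lower with MXD3 in both replicates, and CCT5 and CCT6A were lower in replicate 1 alone. The share of all genes lower in both pairs is not given here, so the 6 cannot be set against it. Without the first EV library the median moved to -0.04, and without the second to -0.18.

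Set against each other, the constructs differed in the same direction for all 8 subunits, which were higher with STIM1::MXD3 than with MXD3, again without passing the test. The median log2 fold change was 0.14, beside 0.01 over all genes, of which 52.1% were higher. The median of the members was 0.05 without the first STIM1::MXD3 library and 0.23 without the second. CCT4 was 0.30 ± 0.20 (95% interval -0.19 to 0.78), CCT8 0.19 ± 0.16, CCT3 0.15 ± 0.12, TCP1 0.15 ± 0.13 and CCT7 0.14 ± 0.12. CCT2 was 0.13 ± 0.15, CCT5 0.10 ± 0.11 and CCT6A 0.09 ± 0.12. In TCP1, CCT3, CCT5, CCT6A and CCT7, 5 of 8 members, both STIM1::MXD3 libraries lay above both MXD3 libraries, a pattern of 10.9% of all genes, and the opposite was seen in 0 members and 10.2% of all genes. This comparison shares its libraries with the other two, so its direction is not a separate observation.

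Without the block, the adjusted p was 1.00 for each member by edgeR, with 0 members under an unadjusted p of 0.05 and 0 called by DESeq2. Of all genes, 0 were called by edgeR (0.00%), 156 had an unadjusted p under 0.05, and DESeq2 called 1. With the block, CCT4 was 0.28 ± 0.08, with an unadjusted p of 0.0040 and an adjusted p of 0.641 by edgeR. It was the 1 member under an unadjusted p of 0.05 in that fit, beside 1001 of 15431 genes, and 1 gene was called, STIM1, 0.00648%. The difference was larger in replicate 1 (median log2 ratio 0.22) than in replicate 2 (0.06), and it rested for CCT2 and CCT8 on the first STIM1::MXD3 library, without which they were -0.06 and -0.02. The same setting gave CCT4 0.05.

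**Figure D3:**
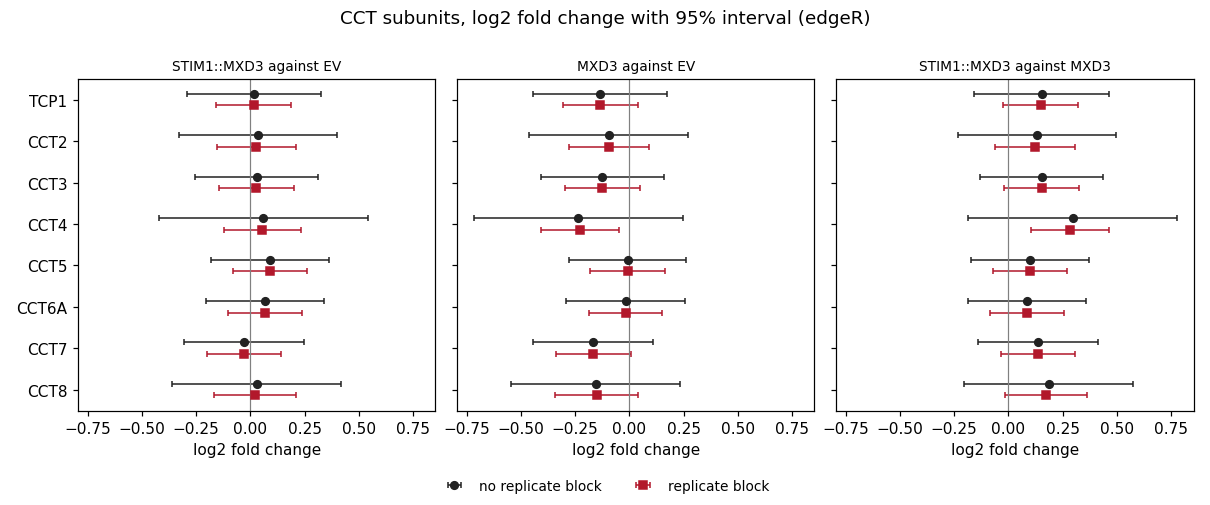
Log2 fold change of each subunit (horizontal axis) in the 3 comparisons, with 95% intervals by edgeR, without the replicate block (black circles) and with it (red squares). Every interval without the block includes 0, and with the block those of CCT4 in the comparisons with MXD3 do not, at adjusted p-values of 0.237 and 0.641.

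Between the replicate numbers 3 of the 8 CCT transcripts passed the test, and the differences were uneven across the ring. CCT4 fell by 0.35 on the log2 scale in replicate 2 (SE 0.07, adjusted p = 0.0013 by edgeR with the plasmid as covariate), and its log2 ratios of replicate 2 to 1 were -0.37 with EV, -0.23 with MXD3 and -0.46 with STIM1::MXD3. CCT8 fell by 0.22 (SE 0.07, adjusted p = 0.031), with ratios of -0.21, -0.07 and -0.39. CCT2 fell by 0.20 (SE 0.07, adjusted p = 0.048), with ratios of -0.13, -0.09 and -0.36. For all 3 genes the ratio was nearest to 0 with MXD3 and farthest with STIM1::MXD3.

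The remaining 5 subunits did not pass the test. TCP1 was -0.13 ± 0.07 (adjusted p = 0.157 by edgeR) and lower in replicate 2 of every group, CCT3 was -0.07 ± 0.07 and CCT7 -0.04 ± 0.07. CCT6A was 0.00 ± 0.07 and CCT5 0.03 ± 0.07, with a 95% interval of -0.11 to 0.17 for CCT5. The members called came from both sides of the ring, CCT2 and CCT4 from the tight and CCT8 from the weak side, as did the members not called.

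These counts have to be read against many other genes that differed between the replicate numbers. Of all genes, 16.1% were called lower in replicate 2 and 13.1% higher, so 3 members lower and 0 higher stood beside 2479 and 2020 genes. The members are among the 424 highest genes by mean CPM, and these shares include weakly counted genes. Among the 10252 genes with a mean of at least 5 CPM, 1964 were called lower and 2080 higher, and CCT4 was the only member called. TCP1, CCT2, CCT4 and CCT8 were lower in replicate 2 of all 3 groups, 4 of 8 against 30.2%, and 0 members were higher in all 3 against 28.6%. The labels give the replicate number and do not say what differed between the 2 transfections. If libraries with the same number were made together, they are not independent replicates of that number. The p-values of this test do not measure the spread between transfections. With upper-quartile scaling the call over all genes split into 1790 lower and 2642 higher, and with total counts into 1637 lower and 2638 higher, so the direction of the smaller differences depends on the scaling. CCT4 was called under each of the 13 other settings tried. CCT2 and CCT8 were not called with total counts, upper-quartile factors or a minimum mean of 5 CPM, nor without either EV library (adjusted p = 0.054 and 0.055 for CCT2, and 0.051 and 0.051 for CCT8, by edgeR) or either STIM1::MXD3 library (0.299 and 0.413 for CCT2, and 0.213 and 0.299 for CCT8). CCT2 was also not called with RLE size factors, with no filter, or without either MXD3 library.

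**Figure D4:**
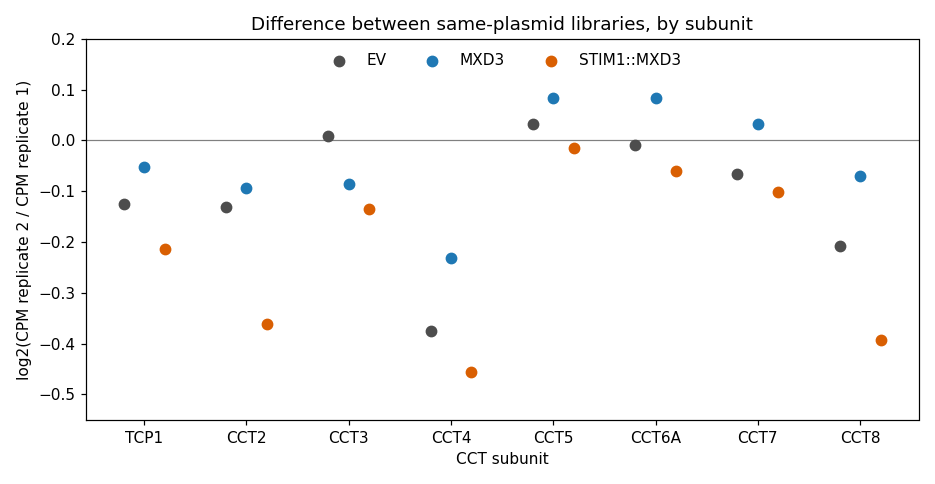
Log2 ratio of CPM in replicate 2 to CPM in replicate 1 (vertical axis) for each subunit (horizontal axis), with 1 point per plasmid group. TCP1, CCT2, CCT4 and CCT8 lie below 0 in all 3 groups, CCT4 lowest at -0.23 to -0.46, while CCT5 and CCT6A lie within 0.09 of 0.

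Across the 6 libraries the subunits did not move as 1 block. TCP1 followed the mean log2 CPM of the 8 members with r = 0.995 and CCT8 with r = 0.978, CCT4 with 0.963, CCT2 with 0.946, CCT3 with 0.892 and CCT7 with 0.855. CCT6A, at 0.619, and CCT5, at 0.361, followed it less closely, although they resembled each other (r = 0.922). The lowest value of any pair was 0.162, for CCT4 and CCT5, and the highest 0.983, for CCT2 and CCT8. These r are descriptions over 6 points that share plasmids and replicate numbers, and each member is part of the mean.

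**Figure D5:**
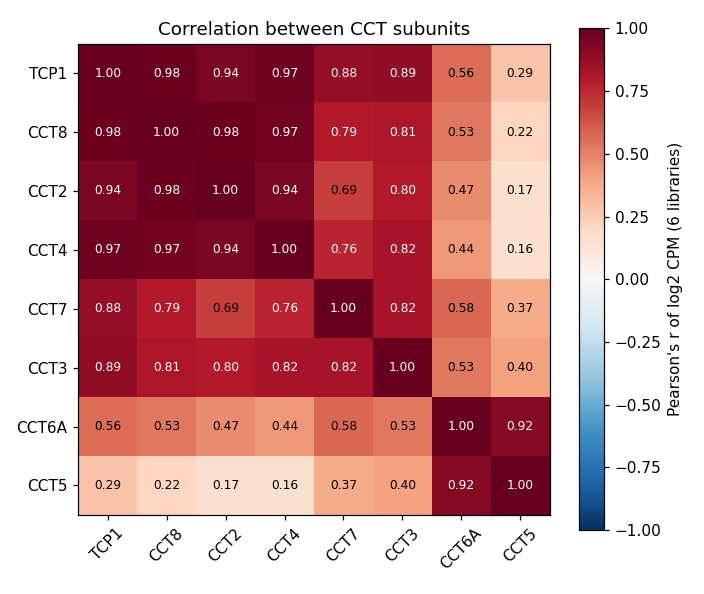
Pearson's r of log2 CPM between pairs of subunits over the 6 libraries, as colour and number. TCP1, CCT8, CCT2 and CCT4 form a square with values from 0.94 to 0.98, and CCT5 with CCT6A a pair at 0.92.

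The genes outside the complex whose log2 CPM was most like the mean of the members, among 7577 genes with a mean of at least 20 CPM, were EIF3E, a subunit of the translation initiation factor eIF3 (r = 0.996 over 6 libraries), EIF2A (0.993), GTF2F2 (0.990), LSM12 (0.990) and STOML2 (0.990). These genes were picked for the highest r of the 7577, over 6 libraries that share plasmids and replicate numbers, so high values follow from the choice. How many other genes came close is not given here. EIF3E stood at 795 and 701 CPM with EV, at 680 and 662 CPM with MXD3, and at 850 and 696 CPM with STIM1::MXD3.

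Prefoldin, which passes unfolded chains to CCT, was measured for 5 of 6 subunits, since PFDN6 had too few counts to be tested. PFDN6 lies in the MHC region of chromosome 6, and whether reads from there were lost in the alignment was not tested, so its low count is not given as low expression. No prefoldin gene was called in a plasmid comparison, with or without the block, or by an unadjusted p under 0.05 in the fit without it. With the block, 1 of 5 had an unadjusted p under 0.05 by edgeR in MXD3 against EV, beside 2149 of 15431 genes. With MXD3 against EV, 5 of 5 were lower (median -0.11), while 50.2% of all genes were higher. With STIM1::MXD3 against MXD3, 5 of 5 were higher (median 0.13), beside 52.1% of all genes. The CCT members had the same directions over the same libraries, and whether prefoldin and CCT moved together was not tested. PFDN5, the subunit with the smallest p, was -0.20 ± 0.13 with MXD3 against EV, at 148 and 135 CPM in EV and 122 and 124 CPM in MXD3. Between replicate numbers, prefoldin split in direction. PFDN2 rose by 0.42 ± 0.07 in replicate 2 (adjusted p = 0.00061 by edgeR), while VBP1 fell by 0.29 (SE 0.08) and PFDN1 fell by 0.23 (SE 0.08).

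None of the cofactors and relatives of CCT was called in a plasmid comparison by edgeR, with or without the block. Of the prefoldin-like proteins URI1, UXT and PDRG1, PDRG1 rose between replicate numbers by 0.38 ± 0.11 (adjusted p = 0.014 by edgeR). Of the phosducin-like and thioredoxin-like cofactors PDCL, PDCL2, PDCL3 and TXNDC9, 0 of 4 were called between replicate numbers, with 0 of 4 at an unadjusted p under 0.05, and PDCL2 was near the detection limit at 0.588 to 1.44 CPM. CCT6B, the testis form of the zeta subunit, stood at 1.01 to 1.95 CPM in K562 cells, far below CCT6A. The CCT6A copies CCT6P1 and CCT6P3 had 8.76 to 12.8 and 5.95 to 14.8 CPM, which together came to 4.27% to 7.55% of the CCT6A counts, so reads may have been split between them. CCT6P3 fell by 0.66 (SE 0.13) between replicate numbers. With MXD3 against EV it was -0.72 ± 0.35, with an adjusted p of 1.00 by edgeR, 0.078 with the block, and 0.014 with the block in DESeq2. The last of these fits called 243 of 15431 genes. Between replicate numbers MKKS, a CCT-related protein of the BBS chaperonin complex, rose by 0.27 ± 0.09. BBS10 and BBS12, the other chaperonin-like genes of that complex, were not called, and CCT8L2 was not tested because of low counts.

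Among the substrates, edgeR called 1 gene in a plasmid comparison, and only with the block. It was also the only gene of all these lists, substrates or not, with an unadjusted p under 0.05 in a plasmid comparison without the block. ACTG1, cytoplasmic gamma actin, stood at 1588 and 1429 CPM with EV, at 1199 and 1059 CPM with MXD3, and at 1323 and 1219 CPM with STIM1::MXD3, so that both EV libraries lay above the other 4. Of all genes tested, 14.8% had both MXD3 libraries below both EV libraries, and 10.0% had both STIM1::MXD3 libraries below them. The share with both was not counted. With MXD3 against EV, ACTG1 was -0.42 ± 0.13 on the log2 scale, with an adjusted p of 1.00 without the block and of 0.044 with it by edgeR. The blocked edgeR fit called 45 of 15431 genes in this comparison, 0.292%. DESeq2 with the block called ACTG1 too, with an adjusted p of 0.00014, and beside it CDC20, the mitotic activator, with an adjusted p of 0.044. That DESeq2 fit called 243 of 15431 genes. CDC20 stood at 232 and 199 CPM with EV, at 189 and 147 CPM with MXD3, and at 224 and 138 CPM with STIM1::MXD3, and was -0.36 ± 0.24 with MXD3 against EV by edgeR. ACTB, beta actin, was -0.15 ± 0.15 in that comparison. Of 9 tubulin genes, 0 were called in any plasmid comparison, and 0 had an unadjusted p under 0.05 without the block or were called by DESeq2. For TUBB, a beta tubulin, this says little, since its estimate was very uncertain. With STIM1::MXD3 against EV it was -0.02 ± 0.73 by edgeR without the block, while the SE of TUBB2A, the next largest, was 0.28. Whether reads of TUBB were lost in the alignment was not tested. TUBA1C, an alpha tubulin, stood at 855 and 724 CPM with EV, at 945 and 739 CPM with MXD3, and at 1051 and 722 CPM with STIM1::MXD3.

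Between replicate numbers, 5 of 9 tubulins and 1 of 2 actins were called lower and none higher, against 16.1% of all genes called lower and 13.1% called higher. In a fit limited to the 10252 genes with a mean of at least 5 CPM, 1964 were called lower and 2080 higher, so calls were more frequent there. TUBB2A fell by 0.53 (SE 0.08), TUBA1C fell by 0.38 (SE 0.07), TUBA4A fell by 0.28 (SE 0.08) and ACTB fell by 0.21 (SE 0.06). Of 14 other substrates, 7 were called lower and 4 higher, beside the same 16.1% and 13.1% of all genes. Among those called, PPP2R2A, a regulatory subunit of PP2A with WD40 repeats, fell by 0.53 (SE 0.08). MLST8, a subunit of the mTOR complexes, fell by 0.44 (SE 0.07), and VHL rose by 0.61 ± 0.10.

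Of the other folding machines, 10 of 11 were tested and 0 were called in a plasmid comparison by edgeR, while DESeq2 with the block called DNAJB1 lower with MXD3 than with EV (adjusted p = 0.0055; -0.43 ± 0.46 and adjusted p = 1.00 by edgeR without it). In that DESeq2 fit 243 of 15431 genes were called. HSPA1A had too few counts to be tested, and its near-identical neighbour HSPA1B had few. Both lie in the MHC region like PFDN6, and the same doubt holds for them. HSPD1, the mitochondrial counterpart of CCT, stood at 610 and 604 CPM with EV, at 606 and 628 CPM with MXD3, and at 695 and 639 CPM with STIM1::MXD3, where it was 0.14 ± 0.12 against EV. For STIM1::MXD3 against MXD3, 10 of 10 were higher, with a median of 0.09, beside 52.1% of all genes. HSPA1B, with few counts, is among the 10. Between replicate numbers 4 were called lower and 1 higher, beside 16.1% and 13.1% of all genes. DNAJB1, an HSP70 co-chaperone induced by heat, fell by 0.95 (SE 0.08), from 205 to 122 CPM with EV, from 159 to 84.0 CPM with MXD3 and from 193 to 86.1 CPM with STIM1::MXD3. HSF1, the regulator of the heat shock response, fell by 0.38 (SE 0.07), and HSPE1, the partner of HSPD1, rose by 0.44 ± 0.08. What set the replicate numbers apart was not tested.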

How the data were processed

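K562 cells transfected with EV, MXD3 or STIM1::MXD3 were profiled by poly A RNA sequencing (2 libraries per group, 6 in all). The authors deposited raw counts per NCBI Gene identifier, not normalised, from read pairs aligned to hg19. The submitters' processing notes name HISAT2 2.2.1 and featureCounts 2.0.1. The study's methods name the DRAGEN RNA Pipeline. Annotation and strand use were not given in the sources used here. Among genes with 1 to 39 counts, 59.8% to 67.3% of counts were even, so both ends of a pair may have been counted, and counts divided by 2 were tried.

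Of 25702 identifiers, 23696 matched a RefSeq symbol. Unmatched ones, 0.225% to 0.276% of counts, stayed in library sizes. Genes passing filterByExpr (15431) were scaled by TMM and tested, two-sided, by edgeR's quasi-likelihood F test (version 4.0.16, R 4.3.3), in 1 fit over 6 libraries, Benjamini-Hochberg adjusted over all genes, with a threshold of 0.05. The replicate number was tested with the plasmid as covariate. DESeq2 1.42.0 was an alternative. The edgeR fit was run on simulated data with a fixed dispersion and folds larger than those of the members. Its error and power for differences of the members' size were therefore not tested. The SE is the absolute log2 fold change over the square root of F, and log2 CPM used a prior count of 2. Without the block, p-values of the plasmid comparisons measure the spread between libraries of 2 transfections per group. With the block, and in the test of the replicate number, the difference shared by same-numbered libraries is taken out of that spread. Those p-values measure only what remains after plasmid and number. Lengths, positions and sequences came from GRCh37 with the GENCODE annotation, names from RefSeq.

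Same-numbered libraries deviated together from their group means over all genes tested (r = 0.270 between EV and MXD3 libraries, 0.364 between EV and fusion libraries, 0.450 between MXD3 and fusion libraries), and the first principal component (42.8%) separated the numbers, so the numbers were taken to pair the libraries. The pairing comes from these data and not from the labels.

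All members are named. From each other list, the genes named are at most the 3 with the smallest unadjusted p per comparison. TUBB is named in addition, for its large SE. Members, lists and tests were chosen with earlier results of these data known. Other settings were size factors (RLE, total counts, upper quartile), filters, halved counts, leaving out each library, the replicate block, and the 4 libraries of a comparison alone.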

Additional observations from a re-analysis of the deposited data

Results flagged for a closer look

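CCT4 was higher with STIM1::MXD3 than with EV in both replicate pairs (log2 ratios 0.09 and 0.01) and lower with MXD3 than with EV in both (-0.30 and -0.16), so that the ratios of the deposited libraries had opposite signs under the constructs. The sign with STIM1::MXD3 was not stable. Its fitted value was 0.06 ± 0.20 (SE), and it turned to -0.11 without the second EV library and to -0.19 without the first STIM1::MXD3 library. The value with MXD3 ran from -0.41 without the second EV library to -0.04 without the first. Set directly against MXD3, STIM1::MXD3 gave 0.30 ± 0.20 (SE, n = 2 libraries per group) and did not pass the test (adjusted p = 1.00 by edgeR). With the replicate block it was 0.28 ± 0.08, with an adjusted p of 0.641 by edgeR, and the smallest adjusted p of any member with the block in DESeq2 was 0.0626. Without the first STIM1::MXD3 library it was 0.05. CCT4 also differed most between the replicate numbers, and both ratios to EV share the same EV libraries. The share of all genes with opposite signs in both pairs is not given here.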

How the results depend on the processing

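With 2 libraries per group, the 95% interval of every member included 0 in the plasmid comparisons fitted over all 6 libraries without the block. With the replicate block those of CCT4 did not, at -0.41 to -0.05 for MXD3 against EV and 0.10 to 0.46 for STIM1::MXD3 against MXD3. The adjusted p-values of CCT4 in these fits were 0.237 and 0.641 by edgeR. Over all settings, member log2 fold changes kept direction and side of the threshold in 445 values, lost a call in 18 and reversed in 25, and no member was called in a plasmid comparison in any of them. For STIM1::MXD3 against EV the genes called went from 1 to 2 without the filter, 3 in DESeq2, and 3 (edgeR) and 29 (DESeq2) with the replicate block. For MXD3 against EV they went from 1 to 3 in DESeq2, and to 45 and 243 with the block, and for STIM1::MXD3 against MXD3 from 0 to 1 without the filter, 1 in DESeq2, and 1 and 11 with the block. The pairing by replicate number changed no call of a CCT member. The cause of these changes was not tested.

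Total counts moved the MXD3 against EV median to -0.0874, CCT5 to 0.0337 and CCT6A to 0.0249, and within replicate number 2 that median was -0.0911. Between replicate numbers, the members called went from 3 to 1 with total counts, 1 with upper-quartile factors and 1 with a minimum mean of 5 CPM. The median was -0.0291 with total counts and -0.0386 with upper-quartile factors, CCT3 was 0.0011 with total counts, and CCT7 was 0.0265, 0.0170 and 0.00012 under these 3 settings. The shares per length, in percent of the summed level, went with the longest and the canonical transcript to 11.4 and 10.9 for TCP1, 10.1 and 11.1 for CCT2, 13.7 and 13.7 for CCT3, 11.7 and 11.3 for CCT4, 8.56 and 8.22 for CCT6A, and 13.8 and 14.6 for CCT7.

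Leaving out 1 library at a time, the STIM1::MXD3 against EV median ran from -0.0868 to 0.10, with CCT7 from -0.0797 to 0.0130, TCP1 from -0.0939 to 0.11, CCT2 from -0.16 to 0.20, CCT3 from -0.0393 to 0.0868, CCT4 from -0.19 to 0.26 and CCT8 from -0.18 to 0.20. For MXD3 against EV the median ran from -0.18 to -0.0418, CCT5 from -0.0605 to 0.0450, CCT6A from -0.0697 to 0.0356 and the genes called from 1 to 2. For STIM1::MXD3 against MXD3, CCT2 ran from -0.0622 to 0.29 and CCT8 from -0.0243 to 0.36. Between replicate numbers, the members called ran from 1 to 2, the genes called from 2580 without the first STIM1::MXD3 library to 4424, CCT6A from -0.0213 to 0.0555 and CCT7 from -0.0702 to 0.0016.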

Other observations

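TCP1, CCT3, CCT5 and CCT6A each start within 1000 bp of a gene that runs the other way. PSPH, an enzyme of serine synthesis that starts 321 bp from CCT6A, stood at 29.7 and 32.8 CPM with EV, at 37.6 and 50.5 CPM with MXD3, and at 28.8 and 55.4 CPM with STIM1::MXD3. ATPSCKMT, a lysine methyltransferase that starts 392 bp from CCT5, stood at 11.3 and 10.8 CPM with EV, at 14.5 and 18.5 CPM with MXD3, and at 12.3 and 20.8 CPM with STIM1::MXD3. CCT5 and CCT6A themselves changed by less than 0.09 on the log2 scale between libraries of 1 plasmid. MRPL18, a mitochondrial ribosomal protein gene 865 bp from TCP1, stood between 76.8 and 88.2 CPM, and TSACC, 234 bp from CCT3, between 0.638 and 1.10 CPM. These neighbours were named after their values were seen.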
